A study of Mus musculus with 24 samples.

Results

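The comparison described here sets mouse embryonic stem (ES) cells after 48 h of auxin against the same cells at 0 h, in 4 of the 24 RNA sequencing libraries of the series. The libraries were chosen by the names of their count columns, which give the ES line, the time and the replicate, and each 48 h library was read against the 0 h library of its own replicate number. The study worked in F123, an ES cell line from a cross of mouse strains, and asked how CTCF bound next to promoters bears on genes that depend on distant enhancers. All 12 groups of 2 libraries came from CTCF-AID cells, controls included, in which CTCF is fused to an auxin-inducible degron (AID): ES cells at 0, 24, 48 and 96 h of auxin, cells differentiating toward neural progenitors with or without auxin on days 2, 4 and 6, and 2 washout groups. ES cells grew in medium with serum replacement and leukemia inhibitory factor (LIF). Auxin was added as 1 µl of a 500 mM stock to each ml of medium, renewed every 24 h, and the cells at 0 h had none. The comparisons used here are those of ES cells at 0, 24, 48 and 96 h and of day 2 cells with and without auxin. Auxin-treated cells that lack the degron were not analysed here, so effects of auxin itself and of CTCF loss cannot be told apart. The labels do not say that replicates were separate cultures, so p-values measure the spread between these libraries.

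CTCF is a zinc-finger protein that binds a long DNA motif and stops the cohesin ring as it extrudes chromatin loops. CTCF at domain borders insulates neighbouring genes from each other's enhancers, and CTCF bound beside a promoter can anchor a loop that brings a distant enhancer close. Auxin binds the plant-derived receptor that marks an AID-tagged protein for the proteasome, so the protein is lost while its mRNA can go on being made.

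Total counts were 27386775 and 51686150 at 0 h and 25232724 and 61681404 at 48 h, for replicates 1 and 2. In all 4 ES groups replicate 2 was the deeper library, and the replicates differed from each other in a way that groups shared. The replicate differences at 0 h and at 48 h correlated at 0.573 across genes, and over all 6 pairs of ES groups the correlation ran from 0.184 to 0.749. ES identity markers were high in all 4 libraries: their summed level over 10 genes was 5157 and 4171 CPM (counts scaled to a library total that is the same for all) at 0 h and 3853 and 4112 CPM at 48 h. Summed markers of 7 fibroblast or feeder genes were 11.5 and 37.8 CPM at 0 h and 25.6 and 26.5 CPM at 48 h, and those of 6 endoderm genes were 179, 290, 254 and 417 CPM in the same order. The endoderm sum was higher at 48 h within both replicates, though Afp and Ttr fell within replicate 2. A wider set of 20 tested endoderm genes summed to 3286 and 4095 CPM at 0 h and 4227 and 3808 CPM at 48 h. That sum rose within replicate 1 and fell within replicate 2. The part of these markers in the results below was not tested. No marker of these lists was at 0 in all 4 libraries, though the fibroblast gene Lum was at 0 in 2 of them and at 0.0784 and 0.0637 CPM in the others. In bulk RNA, fewer cells of a type and less RNA per cell cannot be told apart.

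Ctcf mRNA was present throughout, at 216 and 167 CPM at 0 h and 226 and 259 CPM at 48 h. The log2 fold change was 0.34 ± 0.18 (SE, n = 2 a group), which did not pass in edgeR's quasi-likelihood test with Benjamini-Hochberg adjustment over all tested genes (adjusted p = 0.499). An mRNA level does not check whether the protein was degraded. The gene lies at chr8:105636568-105682922 on the plus strand of mm10.

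After 48 h of auxin 40 of 20361 tested genes changed at an adjusted p below 0.05, which is 0.196% of them. The 20 genes that fell included the cell death effector Bak1, the signalling adaptor Traf6 and the growth factor Fgf4, and their median log2 fold change was −1.61. The 20 that rose were led by the xenobiotic-metabolising enzyme Cyp1a1, with a median of 1.74, while the median over all tested genes was −0.02. Each direction holds 0.0982% of tested genes. All 40 moved the same way and by more than 1.5-fold in both replicate pairs, on a scale of log2(CPM + 0.5), as the plot of replicate pairs shows. They were called from the same libraries, so this describes them and tests nothing. Over all tested genes 3.87% were more than 1.5-fold higher and 2.01% more than 1.5-fold lower in both pairs.

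**Figure D1:**
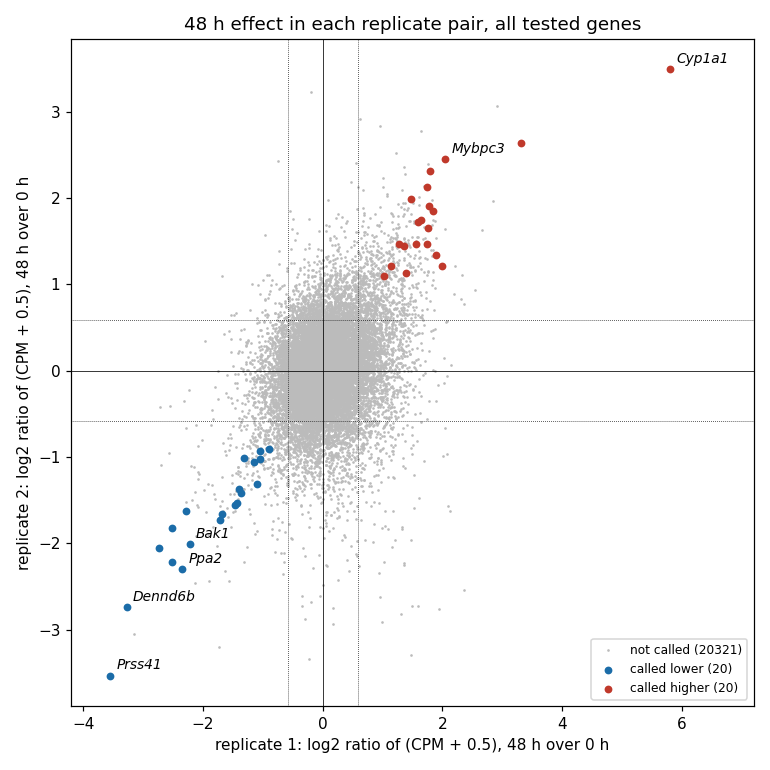
Log2 ratio of (CPM + 0.5) at 48 h over 0 h in replicate 1 (x axis) and replicate 2 (y axis), 1 point per tested gene, with the 20 called lower genes in blue and the 20 called higher genes in red; dotted lines mark 1.5-fold. All 40 called genes lie beyond the dotted lines in both replicates, and Cyp1a1 and Prss41 lie farthest out.

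The number of calls moved widely between fits. The 40 genes were called from these same libraries, so a kept direction in refits of them is largely set by that choice. The adjusted p ran from 0.02 to 0.05 among called genes, and for 20 of them it was 0.045 or more. By edgeR the count was 0 without 48 h replicate 1 or 2 (1121 and 1314 genes at an unadjusted p below 0.05), 1 without either 24 h library, 12 without 0 h replicate 2, 77 without 0 h replicate 1, and 435 and 529 without 96 h replicates 2 and 1. In each of these fits all 40 genes kept their direction, as they did without the replicate block, where 0 genes were called and 1039 had an unadjusted p below 0.05. With the block DESeq2 called 721 genes and limma voom 43.

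Among the lower genes the steepest fall was that of Prss41, a serine protease gene best known from testis. Its level was 8.12 and 8.61 CPM at 0 h and 0.237 and 0.287 CPM at 48 h, for a log2 fold change of −4.92 ± 0.52 (SE, n = 2 a group; adjusted p = 0.0237). The 48 h libraries held 6 and 18 counts of it, against 207 and 437 at 0 h, and the groups did not overlap. The gene spans chr17:23836785-23844172 on the minus strand.

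Dennd6b encodes a DENN domain protein of the family that activates Rab GTPases. It shows why levels were read within replicates: it stood at 47.0 CPM in replicate 1 and 11.4 CPM in replicate 2 at 0 h, and at 4.42 and 1.27 CPM at 48 h. The replicates differed several fold at both times, and the fall within each was similar, at −3.29 ± 0.35 in log2 (SE; adjusted p = 0.0237). Dennd4b, another DENN domain gene, went from 32.7 and 47.1 CPM to 11.8 and 15.9 CPM, a log2 fold change of −1.52 ± 0.22 (SE; adjusted p = 0.0487).

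Bak1 encodes a protein of the Bcl2 family that opens the outer mitochondrial membrane in apoptosis. It was at 48.2 and 66.4 CPM at 0 h and at 9.98 and 16.1 CPM at 48 h, with a log2 fold change of −2.16 ± 0.20 (SE; adjusted p = 0.02). The 48 h libraries lay below both 0 h libraries. Of 15 tested Bcl2 family genes Bak1 was the 1 that passed by edgeR, and their median log2 fold change was −0.07. DESeq2 called 1 of the 15, and 1 had an unadjusted p below 0.05 in edgeR. Across all 20361 tested genes edgeR called 0.196%, DESeq2 called 721 genes, and 12% had an unadjusted p below 0.05 in edgeR. Mcl1, an anti-apoptotic member, was at 620 and 742 CPM at 0 h and 559 and 566 CPM at 48 h (log2 fold change −0.27, adjusted p = 0.482).

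Traf6 encodes the ubiquitin ligase that relays signals from Toll-like and interleukin 1 receptors. Its level was 39.1 and 37.5 CPM at 0 h and 6.39 and 10.2 CPM at 48 h (log2 fold change −2.24 ± 0.26 SE, adjusted p = 0.0262). Cc2d2a, which encodes a protein of the transition zone of cilia, went from 11.5 and 13.4 CPM to 1.58 and 2.49 CPM (−2.64 ± 0.34, adjusted p = 0.0376). In both genes each 48 h library was below each 0 h library.

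Ppa2, the mitochondrial inorganic pyrophosphatase, was at 43.3 and 49.5 CPM at 0 h and at 8.09 and 9.67 CPM at 48 h (log2 fold change −2.38 ± 0.22 SE, adjusted p = 0.02). Ndufaf3, an assembly factor of respiratory complex I, went from 19.8 and 21.0 CPM to 5.68 and 5.99 CPM (−1.80 ± 0.26, adjusted p = 0.0487). Got2, the mitochondrial aspartate aminotransferase, went from 129 and 160 CPM to 58.5 and 76.4 CPM (−1.10 ± 0.14, adjusted p = 0.0356). Got2 lies outside the 12 largest falls and is named here after its values were seen. Ndufaf3 overlaps Impdh2 in the annotation, and the strand setting of the counting is not given, so reads of the pair cannot be told apart; Impdh2 itself was at 347 and 384 CPM at 0 h and 347 and 369 CPM at 48 h.

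Mdp1, a magnesium-dependent phosphatase gene, was at 20.8 and 15.1 CPM at 0 h and 2.68 and 3.25 CPM at 48 h (log2 fold change −2.57, adjusted p = 0.0262). Tmem136, a transmembrane protein gene, went from 16.9 and 12.8 CPM to 3.08 and 3.79 CPM (−2.11, adjusted p = 0.0487). Neither gene's groups overlapped. Adprhl2 encodes the hydrolase that removes ADP-ribose from serine, and it had nearly equal replicates: 50.9 and 51.4 CPM at 0 h against 15.6 and 16 CPM at 48 h (−1.69 ± 0.21 SE, adjusted p = 0.0324). Pkn3, a protein kinase gene, went from 50.2 and 48.5 CPM to 17.8 and 16.2 CPM (−1.54 ± 0.20, adjusted p = 0.0357). Pkn3 overlaps Zdhhc12, which was at 41.0 and 44.2 CPM at 0 h and 37.2 and 33.5 CPM at 48 h, and reads of the pair cannot be told apart.

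The smallest falls that passed were in well expressed genes. Fgf4, the autocrine growth factor that drives ERK signalling in ES cells, was at 197 and 176 CPM at 0 h and 106 and 93.4 CPM at 48 h (log2 fold change −0.90 ± 0.13 SE, adjusted p = 0.0487). The remaining lower genes were Krtcap2, Tex261, Vps36, Nsmce4a, Abca2 and Nomo1, with log2 fold changes from −1.41 in Krtcap2 to −0.99 in Nomo1. Krtcap2 overlaps Trim46, whose reads cannot be told apart from its own. In all 20 lower genes both 48 h libraries were below both 0 h libraries, which held for 13.1% of tested genes.

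**Figure D2:**
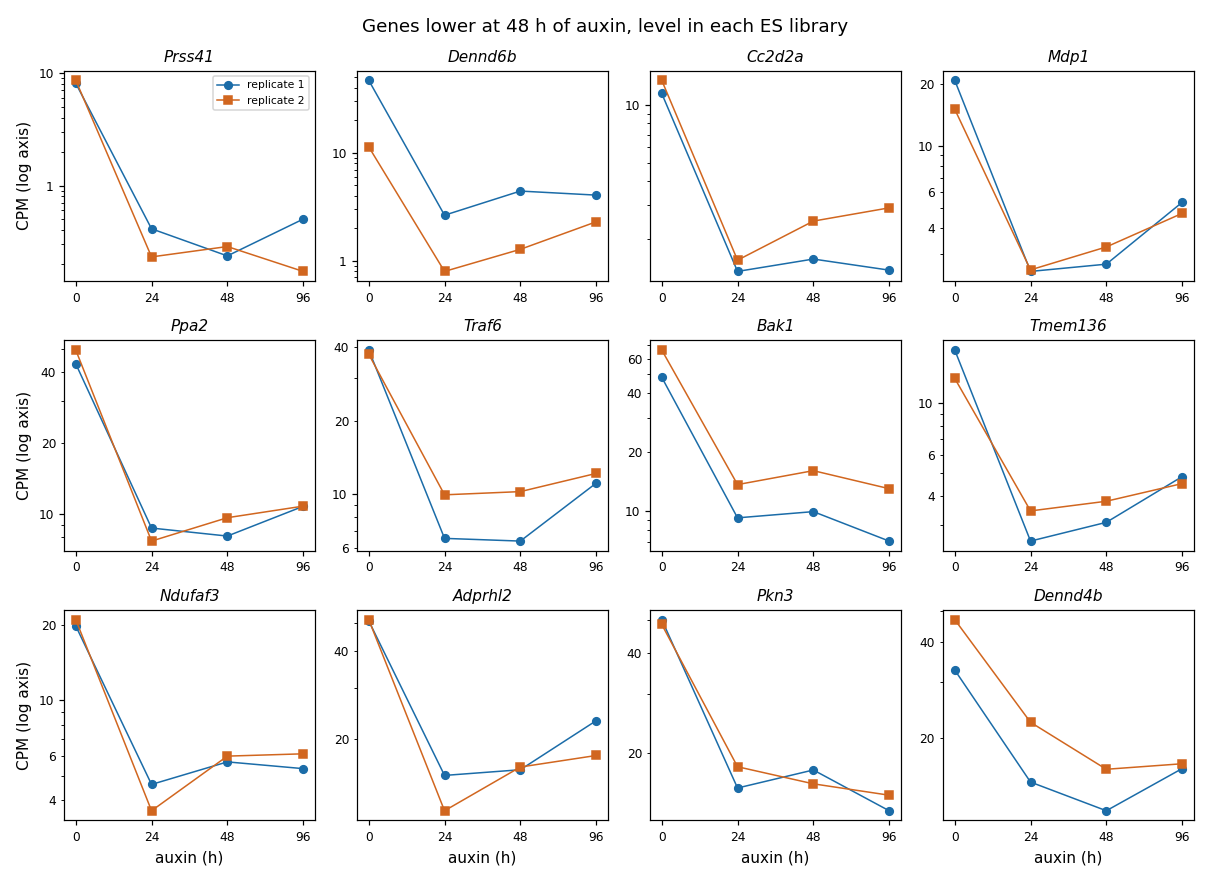
CPM (log axis) of the 12 genes with the largest falls at 0, 24, 48 and 96 h of auxin, with replicate 1 as blue circles and replicate 2 as orange squares; each panel has its own axis. In every panel both replicates are below their 0 h level from 24 h on, and the replicate gap of Dennd6b is present at all 4 times.

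Promoters of 4 lower genes are shown because they hold the CTCF core consensus or a shorter, looser run of letters, AGGNGGCNC. They are 300-base windows from 250 bases before to 50 bases after a RefSeq transcription start, in the GRCm38.p6 reference, and F123 alleles may differ from it. In Dennd6b (chr15:89196425-89196724, minus strand) the capitals mark the CTCF core consensus, read on the opposite strand, whose first capital lies at position −180 from the start. In Bak1 (chr17:27028578-27028877, minus strand), Adprhl2 (chr4:126321654-126321953, minus strand) and Ppa2 (chr3:133309860-133310159, plus strand) they mark AGGNGGCNC, letters that overlap the end of the core consensus. The first N is A in Bak1, where the core consensus takes G or T, so Bak1 matches only the looser letters. Adprhl2 and Ppa2 do not match the full core consensus either, since the bases before their capitals differ from it. These letters begin at −185 in Bak1 and at −51 in Adprhl2, and they occur at 2 places in Ppa2.
Dennd6b: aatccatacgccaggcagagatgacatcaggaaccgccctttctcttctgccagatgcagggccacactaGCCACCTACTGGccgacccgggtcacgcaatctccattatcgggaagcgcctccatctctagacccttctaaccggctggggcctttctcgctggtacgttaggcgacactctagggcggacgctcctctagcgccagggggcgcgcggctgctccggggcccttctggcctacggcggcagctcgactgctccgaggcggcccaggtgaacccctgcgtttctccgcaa
Bak1: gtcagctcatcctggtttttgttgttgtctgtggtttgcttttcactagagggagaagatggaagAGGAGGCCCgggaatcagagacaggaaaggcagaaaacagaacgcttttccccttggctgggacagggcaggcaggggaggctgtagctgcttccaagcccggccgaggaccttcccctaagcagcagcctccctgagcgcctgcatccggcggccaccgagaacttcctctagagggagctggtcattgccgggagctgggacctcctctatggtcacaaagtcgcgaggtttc
Adprhl2: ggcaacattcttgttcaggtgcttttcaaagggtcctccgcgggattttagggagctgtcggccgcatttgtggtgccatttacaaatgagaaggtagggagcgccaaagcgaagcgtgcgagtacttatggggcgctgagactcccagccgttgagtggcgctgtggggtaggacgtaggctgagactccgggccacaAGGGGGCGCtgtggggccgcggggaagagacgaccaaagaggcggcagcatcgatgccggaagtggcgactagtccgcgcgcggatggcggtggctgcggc
Ppa2: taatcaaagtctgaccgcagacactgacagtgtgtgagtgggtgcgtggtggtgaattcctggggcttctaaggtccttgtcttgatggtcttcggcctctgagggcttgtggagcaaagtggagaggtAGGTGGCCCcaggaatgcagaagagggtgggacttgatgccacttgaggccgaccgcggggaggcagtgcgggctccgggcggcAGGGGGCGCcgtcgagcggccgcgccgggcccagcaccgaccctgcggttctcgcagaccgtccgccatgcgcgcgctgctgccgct

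Of the 20 lower genes 19 had a promoter in the table, and 8 of these (42.1%) held AGGNGGCNC on either strand: Abca2, Adprhl2, Bak1, Dennd4b, Dennd6b, Fgf4, Ppa2 and Vps36. Of the 20 higher genes 10 had a promoter and 2 of these held it, Aqp3 and Tnfrsf8. The share was 13.6% among the 12866 tested genes with a promoter and 8.28% among all 32851 promoters of the table. The longer core consensus was found in 1 of 19 lower genes, Dennd6b, and in 0 of 10 higher genes, against 0.839% of tested genes and 0.557% of all promoters. A match of letters is no measure of binding, and a promoter without a match says nothing about CTCF there.

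Among the higher genes Cyp1a1 moved most. It encodes a cytochrome P450 that the aryl hydrocarbon receptor switches on in response to planar aromatic compounds. Its level was 1.26 and 0.158 CPM at 0 h and 97.5 and 6.91 CPM at 48 h, so that the replicates differed by more than 10-fold at 48 h while both were far above their own 0 h library. The log2 fold change was 6.11 ± 0.52 (SE, n = 2 a group; adjusted p = 0.02). Of 8 tested targets of that receptor edgeR called 1, Cyp1a1, DESeq2 called 2, and 3 had an unadjusted p below 0.05 in edgeR. Their median log2 fold change was 0.64, and with all 24 libraries it was 1.40 over 11 tested targets. Across all 20361 tested genes edgeR called 40, DESeq2 called 721, and 12% had an unadjusted p below 0.05 in edgeR. Cyp1b1, a sister enzyme, was at 5.80 and 2.01 CPM at 0 h and at 45.0 and 9.35 CPM at 48 h (2.59 ± 0.47, adjusted p = 0.0748), and Nqo1, a quinone reductase named after its values were seen, was at 31.5 and 21.3 CPM and then 40.2 and 23.2 CPM.

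Mybpc3, which encodes the myosin-binding protein C of heart muscle, was low throughout, at 1.96 and 0.552 CPM at 0 h and 9.70 and 5.26 CPM at 48 h (log2 fold change 2.71 ± 0.39 SE, adjusted p = 0.0487). Tnfrsf8, the receptor CD30, went from 1.65 and 2.56 CPM to 6.90 and 11 CPM (2.09 ± 0.31, adjusted p = 0.05). In both genes the groups did not overlap.

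Cdx1, a homeobox gene of the posterior body axis that Wnt and retinoic acid signals switch on, was at 5.73 and 17.1 CPM at 0 h and 22.7 and 44.2 CPM at 48 h (log2 fold change 1.65 ± 0.22 SE, adjusted p = 0.0472). Pgbd5, a domesticated piggyBac transposase gene, went from 11.4 and 14.4 CPM to 39.6 and 46.3 CPM (1.74 ± 0.20, adjusted p = 0.0262). Megf11, which encodes a membrane protein with EGF-like repeats that spaces neurons in the retina, went from 10.8 and 9.17 CPM to 37.3 and 26.2 CPM (1.65 ± 0.20, adjusted p = 0.0324). Plekhg4, a gene of a guanine nucleotide exchange factor, went from 3.41 and 2.94 CPM to 13.5 and 11.9 CPM (2.00 ± 0.24, adjusted p = 0.0301); it overlaps Kctd19 in the annotation. All 4 genes had every 48 h library above every 0 h library.

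Other higher genes belong to families of near-identical copies, among which reads may be split, so the copy that rose is uncertain. Usp17lb, of a family of deubiquitinases, went from 9.73 and 10.2 CPM to 31.4 and 35.3 CPM (log2 fold change 1.74 ± 0.20 SE, adjusted p = 0.0262). B020004J07Rik went from 4.00 and 4.02 CPM to 15.2 and 22.0 CPM (2.19 ± 0.27, adjusted p = 0.0324), and Gm12800, on the same stretch of chromosome 4, went from 16.9 and 8.83 CPM to 48.2 and 36.5 CPM (1.76, adjusted p = 0.0487). Gm21542 and Gm7957 are annotated as processed pseudogenes, and Gm21542 rose by 1.79 in log2.

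Further higher genes were Fbxo6, Zscan4-ps1, AC211878.2, Tmem191c, which overlaps Pi4ka, Spdye4b, Gm7957 and Aqp3. Aqp3, a channel for water and glycerol, was at 72.4 and 28.6 CPM at 0 h and 160 and 67.1 CPM at 48 h (log2 fold change 1.19 ± 0.13 SE, adjusted p = 0.0262). It was the 1 higher gene of 20 whose groups overlapped, since 0 h replicate 1 lay above 48 h replicate 2. Over all tested genes 14.5% had both 48 h libraries above both 0 h libraries.

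**Figure D3:**
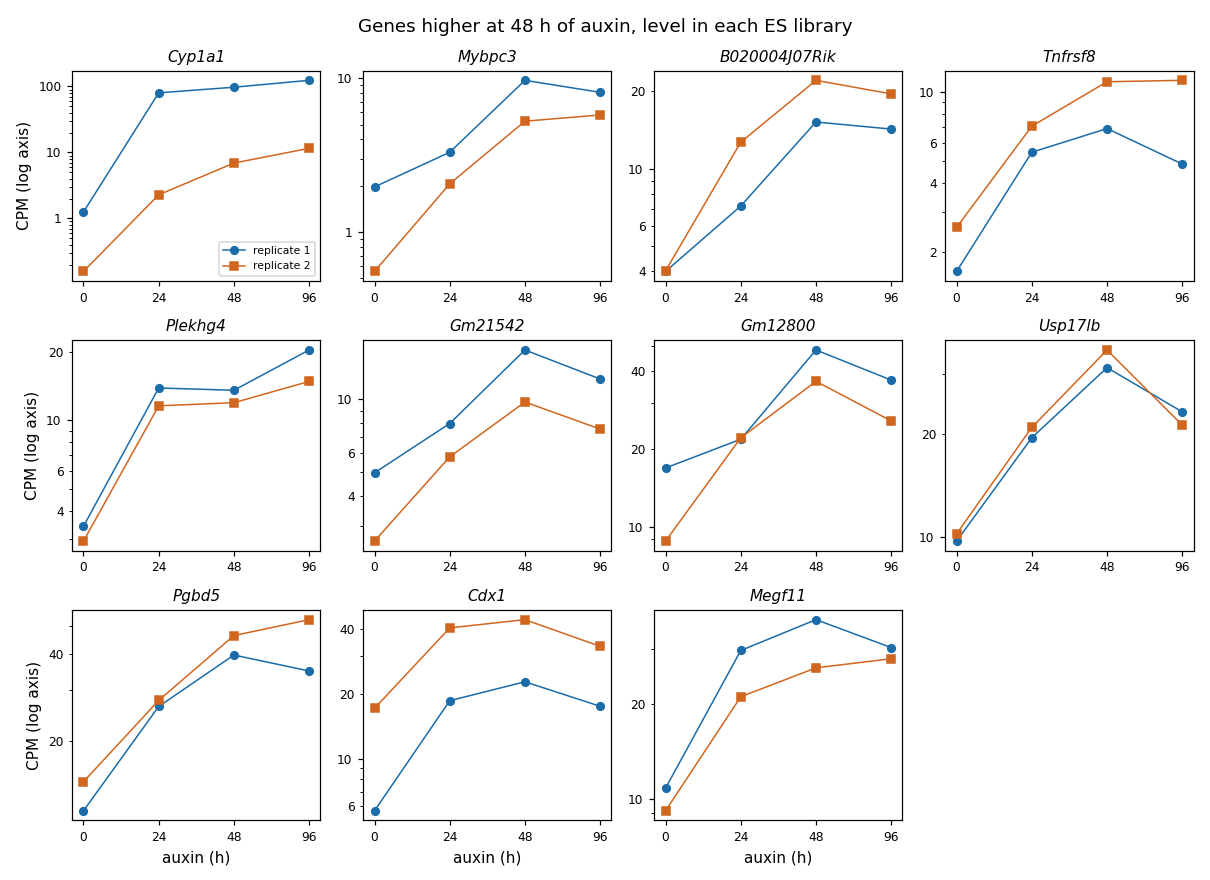
CPM (log axis) of 11 of the 12 genes with the largest rises at 0, 24, 48 and 96 h of auxin, with replicate 1 as blue circles and replicate 2 as orange squares; each panel has its own axis. In every panel both replicates are above their 0 h level from 24 h on, and Cyp1a1 stays more than 5-fold apart between replicates.

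The genes of the two-cell-like state stood highest among the 31 lists. ES cultures hold rare cells that pass through a state resembling the embryo after its first division, and these cells express the Zscan4, Usp17l and Tdpoz families. The deposited counts held 30 of its genes, of which 27 were tested, and edgeR called 2 of them higher, Usp17lb and B020004J07Rik. The list's median log2 fold change was 1.35, and 25 of 27 genes were above 0, all 25 with an unadjusted p below 0.05, which 12% of all tested genes reached in either direction. Usp17le was at 25.8 and 25.2 CPM at 0 h and 61.0 and 80.2 CPM at 48 h (1.46 ± 0.23 SE, adjusted p = 0.0586), and Usp17lc at 11.7 and 16.9 CPM and then 32.6 and 47.1 CPM (1.48 ± 0.23, adjusted p = 0.0586). Zscan4c, a telomere factor, and Duxf3, of the transcription factor family that switches the state on, are named after their values were seen. Zscan4c was at 24.4 and 27.4 CPM at 0 h and 51.1 and 64.6 CPM at 48 h (1.15, adjusted p = 0.0924), and Duxf3 at 1.37 and 2.64 CPM and then 3.55 and 4.67 CPM (1.05, adjusted p = 0.372). The remaining 2 genes, Eif1a and Zfp750, had values of −0.22 and −0.21. DESeq2 called 19 of the 27 higher, and 443 of all 20361 tested genes. Reads may be split among near-identical copies in these families, so the list's genes are not all separate observations.

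General pluripotency genes did not pass by edgeR. Pou5f1, the central pluripotency factor, was at 527 and 543 CPM at 0 h and 399 and 493 CPM at 48 h (log2 fold change −0.28, adjusted p = 0.524). Nanog was at 320 and 353 CPM and then 206 and 302 CPM (−0.42, adjusted p = 0.474), and Sox2 at 302 and 256 CPM and then 219 and 254 CPM (−0.24, adjusted p = 0.597). All 3 of these were lower in both 48 h libraries than in either 0 h library, within a spread that the test did not pass. Over all tested genes 13.1% had both 48 h libraries below both 0 h libraries. Klf4 was at 408 and 237 CPM and then 499 and 406 CPM (0.53, adjusted p = 0.363), and Zfp42 at 397 and 302 CPM and then 320 and 358 CPM (−0.03, adjusted p = 0.951).

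Of 20 naive pluripotency genes edgeR called 1 lower, Fgf4, and none higher (DESeq2 called 3 lower and 1 higher, and 6 had an unadjusted p below 0.05 in edgeR), and their median log2 fold change was −0.07. For comparison, 12% of all tested genes had an unadjusted p below 0.05, and DESeq2 called 721 of all 20361. Dppa3, an oocyte and naive state gene that protects DNA methylation, was at 15.2 and 10.8 CPM at 0 h and 57.6 and 32.4 CPM at 48 h (1.77 ± 0.27 SE, adjusted p = 0.0559). Of 16 formative and primed genes none passed by edgeR (5 at an unadjusted p below 0.05, 1 called by DESeq2), with a median of −0.33 and 13 of 16 below 0. Lef1, a nuclear partner of beta-catenin, was at 5.45 and 31.7 CPM at 0 h and 1.10 and 5.43 CPM at 48 h (−2.44 ± 0.56, adjusted p = 0.122).

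Wnt and primitive streak genes had values on both sides of 0. Of 20 tested Wnt effectors and feedback genes edgeR called 1 higher, Cdx1, and none lower (DESeq2 called 1 higher and 3 lower, and 5 had an unadjusted p below 0.05 in edgeR), with a median log2 fold change of 0.03. Beside this, 12% of all tested genes had an unadjusted p below 0.05, and DESeq2 called 721 of all 20361. T, the brachyury factor of nascent mesoderm, was at 15.3 and 24.4 CPM at 0 h and 3.20 and 8 CPM at 48 h (−1.96 ± 0.31 SE, adjusted p = 0.0587). Nkd2, an inhibitor of Wnt signalling, was at 2.98 and 6.45 CPM and then 0.552 and 0.255 CPM (−3.64 ± 0.60, adjusted p = 0.0587). Among 17 streak and early mesoderm genes none passed by edgeR (4 at an unadjusted p below 0.05, 3 called by DESeq2), and the median was −0.35. Of 21 genes of FGF and ERK feedback 13 had a value below 0, and edgeR called 1, Fgf4, lower. In that list 4 genes had an unadjusted p below 0.05 in edgeR, all lower, and DESeq2 called 1 lower. The feedback phosphatase gene Dusp6 was at 153 and 147 CPM at 0 h and 89.5 and 114 CPM at 48 h (−0.58, adjusted p = 0.209).

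Genes of cholesterol synthesis all had lower values at 48 h, though none passed. The list holds the enzymes from acetyl-CoA to cholesterol and their sterol-sensing regulators, and 25 of 25 genes had a log2 fold change below 0, with a median of −0.56. Of these, 17 had an unadjusted p below 0.05, DESeq2 called 6, and 4 were more than 1.5-fold lower in both pairs. Across all 20361 tested genes the same figures were 12%, 721 genes and 2.01%. Mvd, mevalonate diphosphate decarboxylase, was at 54.7 and 138 CPM at 0 h and 32.4 and 61.5 CPM at 48 h (−0.96 ± 0.16 SE, adjusted p = 0.061), and Hmgcs1, which makes HMG-CoA, was at 220 and 441 CPM and then 131 and 250 CPM (−0.78 ± 0.14, adjusted p = 0.0654). The replicates differed: the list's median was −0.34 in pair 1 and −0.70 in pair 2. The sterol response letters TCACNCCAC, on either strand, stood in 1 of 17 promoters matched for these genes, that of Hmgcs1, against 1.48% of tested genes.

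The replicate pairs differed in a list of glycolysis and hypoxia genes. The summed level of its 28 genes was 10300 CPM in replicate 1 and 18950 CPM in replicate 2 at 0 h, and 9174 and 8583 CPM at 48 h, so 0 h replicate 2 stood above the other 3. The median log2 ratio was 0.07 in pair 1 and −1.23 in pair 2, and none of the 28 genes passed by edgeR. At an unadjusted p below 0.05 there were 9, against 12% of all tested genes, and DESeq2 called 4. Pdk1, which had the smallest p of the list, was lower in both pairs, at log2 ratios of −0.44 and −0.81. It was at 178 and 407 CPM at 0 h, 208 and 405 CPM at 24 h and 131 and 232 CPM at 48 h. The list's median log2 fold change was 0.11 at 24 h, −0.69 at 48 h and −0.94 at 96 h. How much of pair 2's values in other genes, cholesterol synthesis among them, moves with the 0 h replicate 2 level of this list was not tested.

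The gamma protocadherins, cell surface proteins whose clustered promoters are known to bind CTCF, were low in ES cells and lower at 48 h. Their summed level was 54.1 and 21.7 CPM at 0 h and 14.8 and 11.1 CPM at 48 h. Of 18 tested genes none passed by edgeR (10 at an unadjusted p below 0.05, 6 called by DESeq2), 18 were below 0, and the median log2 fold change was −1.86. Across all 20361 tested genes 12% had an unadjusted p below 0.05 and DESeq2 called 721. Pcdhga1 was at 9.18 and 3.67 CPM at 0 h and 1.74 and 0.605 CPM at 48 h (−2.49 ± 0.39 SE, adjusted p = 0.0587). These genes share their last exons, so reads may be split among them.

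**Figure D4:**
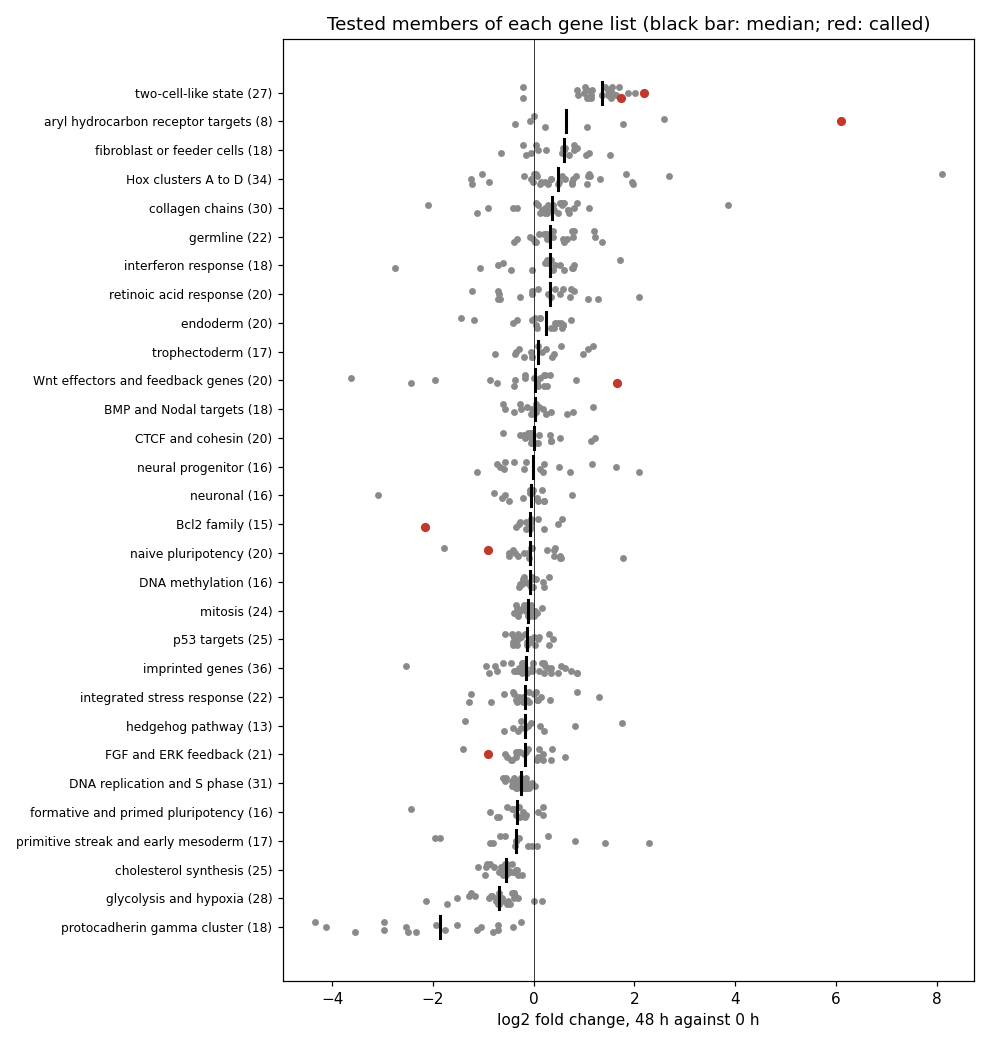
Log2 fold change at 48 h against 0 h of every tested member of 30 gene lists (x axis, 1 point per gene, the number tested in parentheses), sorted by the median, which is the black bar; red points are called genes. The two-cell-like list is highest at a median of 1.35 and the protocadherin gamma list lowest at −1.86, and the rightmost Hox point is Hoxb6, which had 0 counts at 0 h and whose fitted value is no bound.

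Hox, collagen and imprinted genes gave no call by edgeR at 48 h. At an unadjusted p below 0.05, which 12% of all tested genes reached, there were 8 of 34 Hox, 6 of 30 collagen and 9 of 36 imprinted genes. DESeq2 called 1, 4 and 4 of them, and 721 of all 20361 genes. Hox genes had a median log2 fold change of 0.49 over 34 tested, and Hoxb8 was at 0.392 and 0.315 CPM at 0 h and 1.42 and 1.31 CPM at 48 h (1.96 ± 0.48 SE, adjusted p = 0.139), while Hoxb6 had 0 counts at 0 h and 0.237 and 1.02 CPM at 48 h. Col14a1, of 30 collagen chains with a median of 0.35, was at 0.706 and 0.434 CPM at 0 h and 8.60 and 7.33 CPM at 48 h (3.85 ± 0.57, adjusted p = 0.0502). Peg10, an imprinted gene expressed from the paternal allele, was at 1017 and 1735 CPM and then 672 and 909 CPM (−0.76 ± 0.16, adjusted p = 0.0976). The 20 genes of CTCF and cohesin had a median of −0.00, and the 25 targets of p53 and 24 genes of mitosis had medians of −0.13 and −0.11. Vcan, the matrix proteoglycan versican, was at 81.4 and 29.6 CPM at 0 h and 46.9 and 27.3 CPM at 48 h (−0.50 ± 0.33, adjusted p = 0.602).

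The nearest tested genes on either side of the called genes were examined, since CTCF separates neighbours. Of the 40 neighbours of the 20 lower genes edgeR, DESeq2 and limma voom each called 0. By edgeR 8 had an unadjusted p below 0.05, which 12% of all tested genes reached. Of those 8 only Rag1, 28.9 kb from Traf6 and at 0 CPM at 0 h, was higher. The lower ones include Tekt2, 0.4 kb from Adprhl2 (−1.48), Ankrd53, 0.6 kb from Tex261 (−2.40), and Prss33, 0.7 kb from Prss41 (−3.10), all low in level. The median log2 fold change of the 40 was −0.07, with 17 above 0 and 23 below. In both pairs 1 was more than 1.5-fold higher and 1 more than 1.5-fold lower, against 3.87% and 2.01% of all tested genes. Itpr3, a calcium channel gene 28.3 kb from Bak1, was at 212 and 141 CPM at 0 h and 177 and 103 CPM at 48 h (−0.35, adjusted p = 0.359). Plxnb2, 1.4 kb from Dennd6b, was at 161 and 173 CPM and then 114 and 101 CPM (−0.65 ± 0.18 SE, adjusted p = 0.192). Fbxl5, 3.6 kb from Cc2d2a, had a value of 0.26, and Nedd8, 1.8 kb from Mdp1, a value of −0.22.

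Of 38 neighbours of 19 higher genes edgeR called 0, DESeq2 called 6 higher and limma voom 1 higher. Across all 20361 tested genes DESeq2 called 443 higher and limma voom 18. By edgeR 9 of the 38 neighbours had an unadjusted p below 0.05, against 12% of all tested genes. Of those 9 only Gm6563, 8.3 kb from Gm21542, was lower. The median of the 38 was 0.25, with 25 above 0 and 13 below. In both pairs 7 were more than 1.5-fold higher, against 3.87% of all tested genes. Some of these belong to the same gene family: Usp17la, 14.4 kb from Usp17lb, was at 14.7 and 12 CPM at 0 h and 35.1 and 35.5 CPM at 48 h (1.42, adjusted p = 0.0924), and Gm12794, 28.5 kb from Gm12800, had a log2 fold change of 1.34. Others do not: Spi1, the myeloid factor PU.1, 2.4 kb from Mybpc3, was at 3.80 and 1.83 CPM and then 6.00 and 9.67 CPM (1.52 ± 0.54 SE, adjusted p = 0.303). Edc3, 4.7 kb from Cyp1a1, was at 50.6 and 108 CPM and then 49.2 and 91.0 CPM (−0.15).

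The other times in ES cells share the 0 h libraries with the 48 h comparison, so their values are set side by side only. At 24 h 23 genes were called (0.113% of those tested), 4 higher (0.0196%) and 19 lower (0.0933%), against 1257 at an unadjusted p below 0.05 (6.17%), and at 96 h 621 were called (3.05%), 295 higher (1.45%) and 326 lower (1.60%), against 3929 at an unadjusted p below 0.05 (19.3%). The 20 lower genes had medians of −1.81 at 24 h, −1.61 at 48 h and −1.51 at 96 h, and the 20 higher genes medians of 1.19, 1.74 and 1.48. Both sets were chosen by their 48 h values, which can favour larger values at that time. Bak1 stood at 9.28 and 13.7 CPM at 24 h, near its 48 h level. Mybpc3 stood at 3.30 and 2.05 CPM at 24 h, between its 0 h and 48 h levels, and the two-cell-like list had medians of 0.73 at 24 h, 1.35 at 48 h and 0.86 at 96 h.

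Levels at 48 h were also tested against the neighbouring times directly. Against 24 h, 0 genes were called by edgeR, with 610 at an unadjusted p below 0.05 (3%), and DESeq2 and limma voom called 0 as well. Among the 40 called genes, 12 of the 20 higher and 1 of the 20 lower had an unadjusted p below 0.05 in that comparison, the lower one being Fgf4. The 40 genes were called on the same 48 h libraries, so these counts are affected by that choice and do not test a later change. Against 48 h, 0 genes were called at 96 h by edgeR, with 1064 at an unadjusted p below 0.05 (5.23%), while DESeq2 called 52 and limma voom 0.

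Day 2 of differentiation gave a comparison that shares no library with the ES one. With auxin 4126 of 22587 tested genes changed (18.3%), 2222 higher (9.84%) and 1904 lower (8.43%). All 20 genes that fell in ES cells at 48 h fell on day 2 as well. Of the 20 that rose in ES cells 16 rose on day 2 (4 with all 24 libraries and no block, 13 without either control library), all 20 had a log2 fold change above 0, and Aqp3, Zscan4-ps1, Gm12800 and Spdye4b did not pass. Among the 19829 genes tested in both, 47.1% were below 0 and 52.9% above 0 on day 2.

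The lower genes had a median log2 fold change of −1.61 in ES cells and −1.71 on day 2. Bak1 was at 72.4 and 73.5 CPM in day 2 control cells and 14.6 and 13.9 CPM with auxin, a log2 fold change of −2.36 ± 0.07 (SE, n = 2 a group; adjusted p = 6.43e-12). Pkn3 had −2.51 ± 0.09 on day 2 against −1.54 ± 0.20 in ES cells. CPM values of ES and day 2 cells were scaled in separate fits and are not compared in level.

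The higher genes had a median of 1.74 in ES cells and 0.90 on day 2. Cyp1a1 was at 2.42 and 2.34 CPM in day 2 control cells and 15.6 and 14.2 CPM with auxin, a log2 fold change of 2.64 ± 0.13 (SE; adjusted p = 7.36e-10) against 6.11 ± 0.52 in ES cells. Megf11 went the other way in size, with 1.92 on day 2 and 1.65 in ES cells. A test of the difference between the ES and day 2 effects called 0 of 22135 genes by edgeR (874 at an unadjusted p below 0.05, lowest adjusted p = 0.179). The difference was 3.51 ± 0.55 in log2 for Cyp1a1 (SE; adjusted p = 0.241), 1.52 ± 0.21 for Pgbd5 (adjusted p = 0.179) and 0.99 ± 0.23 for Pkn3 (adjusted p = 0.849).

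**Figure D5:**
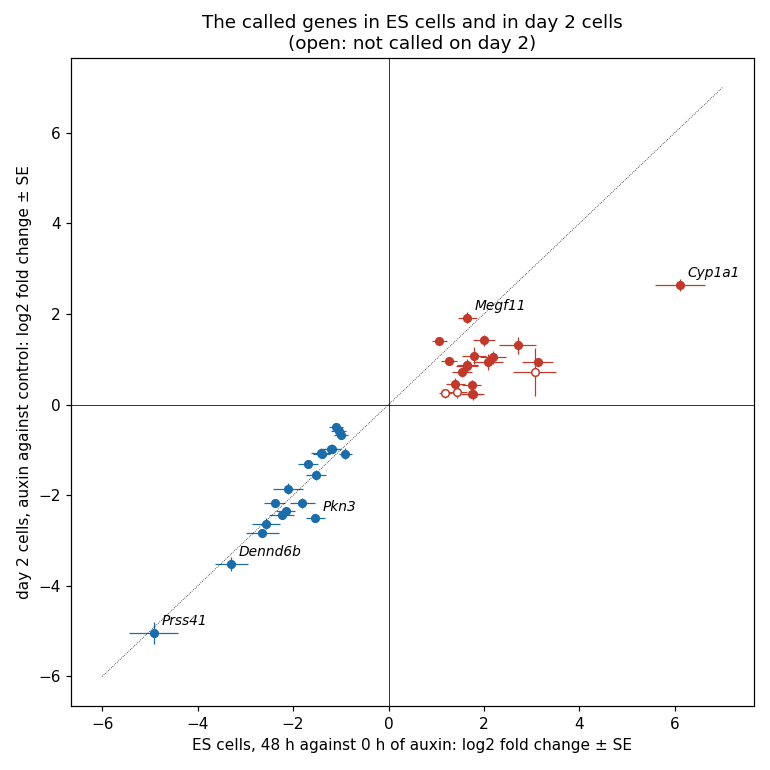
Log2 fold change of the 40 called genes in ES cells at 48 h against 0 h (x axis) and in day 2 cells with against without auxin (y axis), with bars of 1 SE; blue genes were called lower and red genes higher in ES cells, open points were not called on day 2, and the dotted line marks equal values. The lower genes lie near the line, and Cyp1a1 lies below it, with 2.64 on day 2.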

How the data were processed

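Per the labels' protocols, libraries were read on an Illumina HiSeq4000. The authors deposited whole-number read counts per gene with 1 column per library and no normalization. STAR, HTSeq, edgeR and mm10 are named in the submitters' processing notes; the sources used here give no versions, annotation or strand setting. Total counts per library are the depth, and no p-value or standard error covers more than the spread between libraries. Of counts of 1 to 20, 66.2% to 78.0% in the ES libraries were even, and counts divided by 2 were tried for this reason. No 2 libraries were identical, and of the deposited lines 51697 with a gene name were used and 1 with none was not.

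In R 4.3.3 with edgeR 4.0.16, filterByExpr (minimum count 10, minimum total 15) kept 20361 genes in the 8 ES libraries, and library sizes were set by TMM (trimmed mean of M-values). An edgeR quasi-likelihood model with the 4 times and the replicate number as a block was fitted (3 residual degrees of freedom per gene before moderation, common dispersion 0.0511), and 48 h was tested against 0 h, with Benjamini-Hochberg adjustment over all tested genes and a threshold of 0.05. Any adjusted p in the text comes from these edgeR fits unless DESeq2 1.42.0 or limma 3.58.1 is named. A standard error (SE) is the size of the log2 fold change over the square root of F. The replicate block was used because replicate differences correlated above 0.1 for each of the 6 ES group pairs (0.184 to 0.749) and because the comparison was defined within replicates. CPM use the same library sizes. Day 2 was tested in the 16 differentiation libraries without a block, and the difference of effects in 12 libraries. The fit was tested on simulated data.

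Members, gene lists and tests were chosen with earlier results of these data known. Named genes are Ctcf, up to 12 called genes each way with the largest changes among those whose log2 CPM averaged 1 or more with the same direction in both pairs, up to 4 genes per list with the smallest p, chosen pluripotency genes and Vcan, and the nearest tested neighbours; some genes that meet this rule are not reported here, and others are marked as named after their values were seen or are given to complete a count. Positions are those of GENCODE vM21 on mm10, matched by symbol for 95.7% of tested genes, and promoter sequences are from RefSeq (GRCm38.p6).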

Additional observations from a re-analysis of the deposited data

How the results depend on the processing

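The direction of the 40 genes called at 48 h was kept in every alternative fit (39 genes where 1 fell under the CPM filter). These fits reuse the libraries from which the genes were called. No named gene changed sign where it was called in the main fit or in the alternative. Sign changes of genes called in neither were not counted. The number of calls was not kept. Changed genes, with higher and lower in brackets, were 0 (0 and 0) without the replicate block, 710 (413 and 297) with all 24 libraries and no block, 2639 (1350 and 1289) with all 24 and the block in ES cells, 1 (1 and 0) with the 4 libraries alone, 20 (9 and 11) with RLE size factors, 721 (443 and 278) with DESeq2, 748 (432 and 316) without a filter on low counts, 17 (9 and 8) with at least 1 CPM in 4 libraries, 20 (9 and 11) with counts divided by 2, 0 (0 and 0) at an adjusted p below 0.01 and 230 (129 and 101) below 0.10. With limma voom it was 43. The 40 genes were all among those of DESeq2 and 37 were among those of all 24 libraries without a block. Leaving out 1 library gave 0 to 529 changed genes, 0 to 304 higher and 0 to 225 lower. Against 24 h the count was 29 with all 24 libraries and the block and 34 without a filter, and 0 to 0 leaving out 1 library. At 96 h against 48 h it was 6 with all 24 libraries, 571 with the block added, 52 with DESeq2, 108 without a filter, and 0 to 3 leaving out 1 library. The day 2 count was 313 with all 24 libraries, 3944 with a replicate block and 2214 to 7719 leaving out 1 library. Of the 20 lower and 20 higher ES genes, 17 and 4 were called the same way on day 2 with all 24 libraries, and 20 and 13 to 17 leaving out 1 library. The difference from day 2 called 55 genes with all 24 libraries, an alternative chosen after seeing the data. Genes past 1.5-fold in both pairs numbered 1197, 2047 with a pseudocount of 0.1 CPM and 310 at 2-fold. The share of lower genes with CTCF letters was 5.26% for the core consensus and 42.1% for AGGNGGCNC. List medians near 0 changed sign in 2 lists: CTCF and cohesin to 0.02 and 0.01, and neural progenitor to 0.16 and 0.01, with all 24 libraries and without the block. With all 24 libraries the medians of aryl hydrocarbon receptor targets, fibroblast genes and FGF and ERK feedback genes were 1.40, 0.23 and −0.31, against 0.64, 0.60 and −0.18; without the block the last 2 were 0.27 and −0.32. Those of Wnt genes and neuronal genes, near 0, were 0.07 and −0.02 with all 24 libraries. The trophectoderm median was 0.13 without the block, and that of imprinted genes −0.08 with DESeq2. A lone library left in a group was assumed to vary like the others. Where no cause is given, it was not tested.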

Other observations

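Retinoic acid and germline genes were not called at 48 h in ES cells by edgeR, with 7 genes each at an unadjusted p below 0.05, which 12% of all tested genes reached. DESeq2 called 2 and 0 of them, and 721 of all 20361 genes. The retinoic acid list had a median log2 fold change of 0.32 over 20 tested genes and the germline list 0.32 over 22. Aldh1a3 and Aldh1a2, which make retinoic acid, were at 0.863 and 1.26 CPM and at 1.73 and 1.89 CPM at 0 h, and at 3.04 and 6.26 CPM and 3.47 and 5.54 CPM at 48 h (adjusted p = 0.109 and 0.155 in edgeR). Stra8, a retinoic acid target that starts meiosis, was at 42.2 and 58.7 CPM and then 81.3 and 94.6 CPM (0.81 ± 0.23 SE, adjusted p = 0.205). Rara, a retinoic acid receptor gene, had the opposite sign, at 41.2 and 74.8 CPM and then 22.9 and 49.5 CPM (−0.71, adjusted p = 0.233). In the first 3 genes both 48 h libraries were above both 0 h libraries, which held for 14.5% of all tested genes.

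Genes of DNA replication and S phase had 30 of 31 values below 0, a median of −0.25 and no call by edgeR (6 at an unadjusted p below 0.05, 2 called by DESeq2). Across all 20361 tested genes 12% had an unadjusted p below 0.05 and DESeq2 called 721. Rrm2, a subunit of ribonucleotide reductase, was at 643 and 957 CPM at 0 h and 464 and 613 CPM at 48 h (−0.56 ± 0.13 SE, adjusted p = 0.117). Among hedgehog pathway genes Gli1, a transcription factor and target of the pathway, was at 17.2 and 10.9 CPM and then 5.25 and 5.50 CPM (−1.37 ± 0.30, adjusted p = 0.11), while the ligand gene Ihh was at 6.43 and 4.00 CPM and then 24.5 and 11.3 CPM (1.74 ± 0.52, adjusted p = 0.226). The interferon, endoderm and fibroblast lists had medians of 0.32, 0.23 and 0.60 and no call by edgeR. Of their 18, 20 and 18 tested genes, 4, 5 and 2 had an unadjusted p below 0.05, and DESeq2 called 3, 1 and 2. The fibroblast median was 0.27 without the replicate block and 0.23 with all 24 libraries, and within replicate pairs 1 and 2 it was 0.61 and 0.18. The trophectoderm list had 0.08, the neuronal list −0.05 and the neural progenitor list −0.01.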
